A study of Danio rerio with 5 samples.

Results

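The interferon-response genes described here are 7 genes of antiviral defence, measured in whole kidneys of adult zebrafish with and without the transcription factor runx1. They were taken by name from 5 tables of read counts, out of 32520 gene IDs: RSAD2, IFIH1, mxa, mxb, mxc, isg15 and IRF7. There were 3 wild-type libraries, with the numbers 1, 2 and 3, and 2 runx1 null libraries, with the numbers 5 and 6. Null fish were homozygous for the del8 allele hg96 of runx1, a constitutive deletion of 8 bp, and the wild-type fish were their siblings. All fish were of strain EK and about 2.5 months old, and each library pooled the kidneys of 3 fish per the labels, so a library shows no spread between single fish.

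When a cell detects viral nucleic acid, sensors such as IFIH1 switch on interferon genes through transcription factors that include IRF7. Secreted interferon binds receptors on neighbouring cells, whose JAK kinases activate transcription factors of the STAT family. These enter the nucleus and switch on antiviral effectors such as RSAD2, isg15 and the Mx proteins. In zebrafish the type I interferons are named ifnphi, and the kidney is both the excretory organ and the adult site of blood formation, so that a kidney library holds RNA of nephrons, red cells, white cells and their progenitors.

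Libraries held between 27631376 and 33752278 counts assigned to genes, and 3 counts, taken as the smallest level shown, corresponded to between 0.0876 and 0.113 CPM (the count scaled to a common effective library size). The 9 ovary markers summed to 813 CPM in wild type 2 and 4890 CPM in runx1 null 6, against 5.11 to 15.1 CPM in the other 3 libraries. The nephron markers, 9 matched of 11 listed, were present in every library but ranged from 59.1 CPM in wild type 3 to 3545 CPM in runx1 null 5. The erythroid markers summed to 4783 CPM in runx1 null 6 and to between 28440 and 51315 CPM elsewhere. The targeted gene, RUNX1, had 139, 90 and 87 counts in wild type, against 184 and 56 counts in the null libraries, and a count over the whole gene does not show a deletion of 8 bp. Runx1 null 6 and wild type 2 therefore stood apart through their ovary markers, and the fold changes of the members are also given without these libraries.

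Across the genotypes, RSAD2, IFIH1, IRF7 and isg15 had negative log2 fold changes, lower in runx1 null than in wild type, as 41.8% of all tested genes did. The gene mxc stood higher, except that scaling to nephron markers put mxc lower. The log2 fold changes of mxa, 0.24, and of mxb, 1.05 in a fit without the filter on low counts, were positive too. Of the 7 genes, 3 had both null libraries under every wild-type library in CPM: RSAD2, IFIH1 and IRF7. Over all 20386 tested genes, 14.83% were lower in this way. For IRF7 this order depended on the scaling: null 5 had 1327 of 30354646 assigned counts, and wild type 2 had 1207 of 30174956. Per assigned count its groups overlapped. A single member, mxc, was higher in both null libraries than in every wild-type library, as were 11.15% of all tested genes. For the other 3 members the groups overlapped. In the edgeR quasi-likelihood fit none of the 6 members that passed the filter on low counts had a p-value under 0.05, adjusted or not. The share of all genes past the adjusted threshold was 0% in either direction, and 3.16% of genes were higher and 1.21% lower at an unadjusted p under 0.05, 890 genes in all. The DESeq2 Wald test called 81 genes, none of them a member. Expressed as null over wild type, the median log2 fold change was -1.36 over the 6 tested members and 0.24 over all tested genes.

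Scaling shifts every gene together, and the median of all genes lay between -2.13 with nephron scaling and 2.03 with erythroid scaling. Relative to that median, the log2 fold change of mxc was between 0.97 and 1.87 above it in all 20 settings that were run, and that of RSAD2 between 0.84 and 3.47 below it. With nephron scaling itself, mxc was at -1.13 and RSAD2 at -5.44. The distance of mxc from the bulk of genes thus kept its direction where its sign did not. As a scaling moves mxc and the median by about the same amount, this agreement across scalings was nearly fixed in advance and is a description only.

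**Figure D1:**
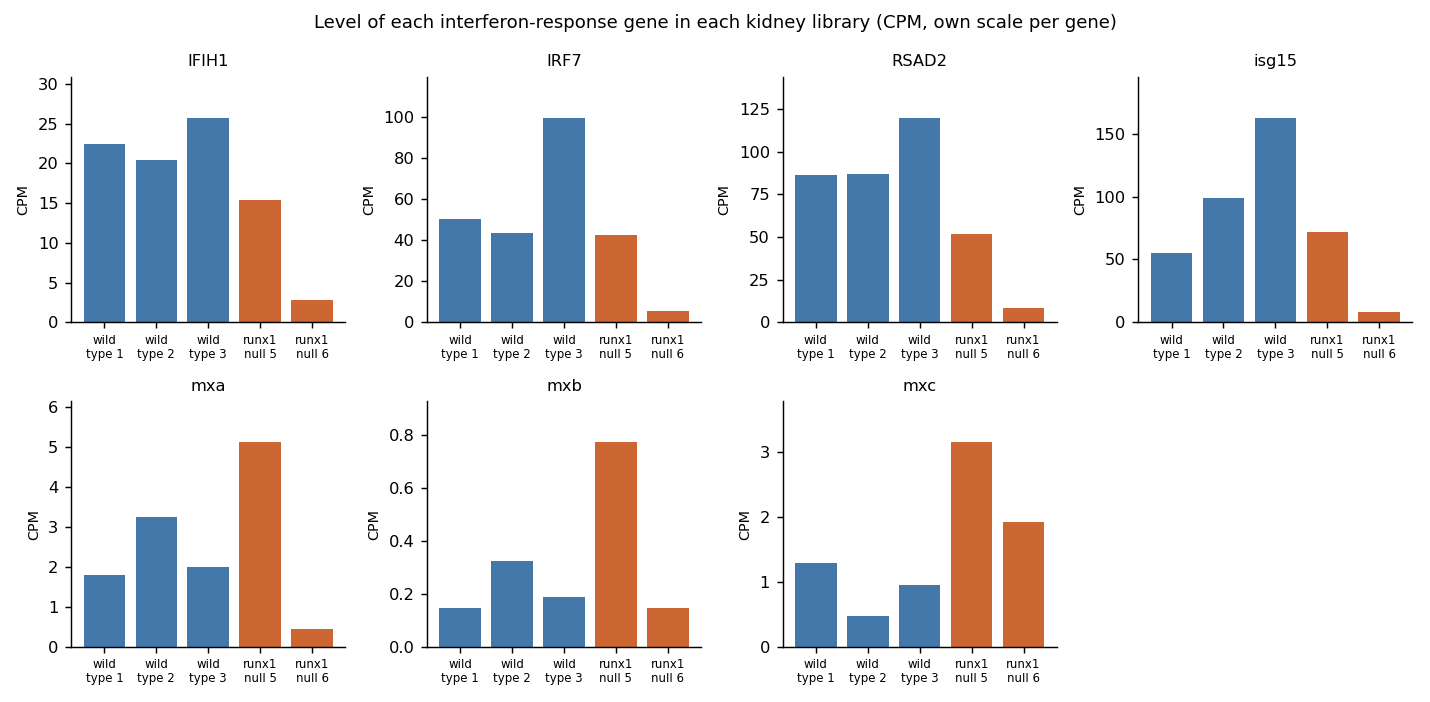
Level of each of the 7 interferon-response genes (CPM, each panel with its own vertical scale from 0) in the 3 wild-type libraries (blue) and the 2 runx1 null libraries (orange), 1 bar per library. Runx1 null 6 has the lowest bar for every gene but mxc, at 8.49 CPM for RSAD2 and 5.60 CPM for IRF7, while mxc stands at 3.15 and 1.93 CPM in the null libraries and at most 1.29 CPM in wild type.

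The sensor came first in the order of the pathway. IFIH1 (ENSDARG00000018553), also known as MDA5, is a helicase that recognises long double-stranded RNA in the cytoplasm. It stood at 22.4, 20.5 and 25.7 CPM in wild type 1, 2 and 3, against 15.4 and 2.74 CPM in runx1 null 5 and 6. Wild-type values lay close together, null 5 was somewhat below them, and null 6 was far below null 5. The fitted log2 fold change was -1.34 ± 0.81 (SE; adjusted p-value 0.612 in edgeR). Without runx1 null 6 it was -0.54, and without runx1 null 5 it was -3.09, so its size was set largely by null 6.

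IRF7 (ENSDARG00000045661) is a transcription factor that binds interferon promoters after infection and is itself induced by interferon. Its level was 50.5, 43.5 and 99.5 CPM in wild type, against 42.6 and 5.60 CPM in runx1 null. Null 5 lay only just under wild type 2, and wild type 3 stood well above the other libraries. The fitted log2 fold change was -1.42 ± 0.93 (SE; adjusted p-value 0.612 in edgeR). It was -0.56 without runx1 null 6 and -3.55 without runx1 null 5.

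Among the effectors, RSAD2 (ENSDARG00000004952), or viperin, is an enzyme that makes a nucleotide analogue which stops viral RNA synthesis. It was at 86.7, 86.9 and 120 CPM in wild type, and at 51.7 and 8.49 CPM in null 5 and 6. That is 97.8 ± 19.1 CPM (SD, n = 3) against 30.1 ± 30.6 CPM (SD, n = 2), where the spread of the null group was as large as its mean. RSAD2 had the most negative log2 fold change of the members, -1.70 ± 0.80 (SE; adjusted p-value 0.612 in edgeR). The adjusted p-value was 0.468 in the DESeq2 Wald test and lay between 0.113 and 0.906 over all alternatives. The log2 fold change was -0.88 without runx1 null 6 and -3.55 without runx1 null 5.

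The ubiquitin-like protein isg15 (ENSDARG00000086374) is attached to other proteins in cells that respond to interferon. It stood at 54.9, 98.7 and 163 CPM in wild type 1, 2 and 3, against 71.8 and 8.43 CPM in null 5 and 6. Null 5 lay inside the wild-type range, so the groups overlapped. The log2 fold change was -1.39 ± 0.98 (SE; adjusted p-value 0.612 in edgeR). It was -0.51 without runx1 null 6 and -3.67 without runx1 null 5.

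**Figure D2:**
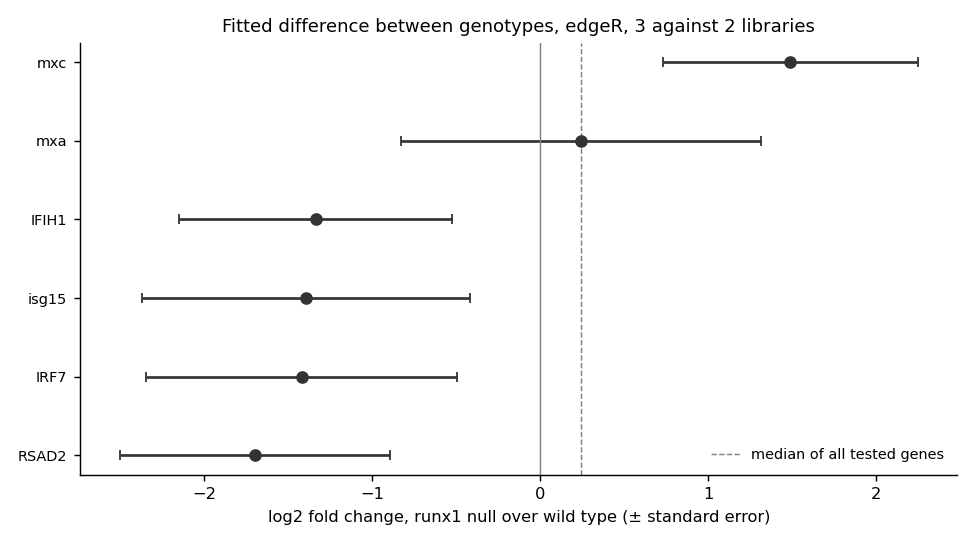
Fitted log2 fold change of the 6 tested members, runx1 null over wild type (horizontal axis), each point with its standard error from edgeR over 3 and 2 libraries. The dashed line marks the median of all tested genes, 0.24. The 4 points from RSAD2 at -1.70 to IFIH1 at -1.34 lie left of 0, mxa lies at 0.24 and mxc at 1.49, which turns negative with nephron scaling, and none passed the adjusted threshold.

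Mx proteins are large GTPases of the dynamin family that assemble around viral components, and zebrafish carry several copies. The members mxa, mxb and mxc all had few reads. Counts of mxa (ENSDARG00000021688) were 61, 90 and 53 in wild type 1, 2 and 3, against 159 and 15 in null 5 and 6. The null libraries thus held both the highest and the lowest value, 5.11 and 0.438 CPM, with wild type between 1.79 and 3.24 CPM. Its log2 fold change of 0.24 ± 1.07 (SE, adjusted p-value 0.929 in edgeR) was 1.16 without null 6 and -2.44 without null 5.

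For mxb (ENSDARG00000004953) there were 5, 9 and 5 counts in wild type, and 24 and 5 in null 5 and 6. It did not pass the filter on low counts. In a fit of 27942 genes without that filter its log2 fold change was 1.05 ± 1.09 (SE; adjusted p-value 0.708 in edgeR). Null 5 was the highest library for mxb as for mxa, while null 6 was level with wild type 1.

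The counts of mxc (ENSDARG00000024789) were 44, 13 and 25 in wild type 1, 2 and 3, against 98 and 66 in null 5 and 6. In CPM these were 1.29, 0.469 and 0.944 against 3.15 and 1.93, or 0.901 ± 0.413 (SD, n = 3) against 2.54 ± 0.865 (SD, n = 2). Both null libraries lay above all wild-type libraries, and wild type 2 was the lowest. The exact 95% Poisson interval, which covers counting error only, was 1.49 to 2.45 CPM in null 6 and 0.938 to 1.73 CPM in wild type 1. The intervals of these neighbours in the order thus overlapped, which is not a test of their difference. Null 5, at 2.56 to 3.84 CPM, was clear of every wild-type library by this measure. The log2 fold change was 1.49 ± 0.76 (SE; adjusted p-value 0.612 in edgeR). Its adjusted p-value was 0.468 in the DESeq2 Wald test and over all alternatives lay between 0.0863 and 0.906, so the higher level of mxc passed the threshold in none of them.

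The null libraries differed in which Mx genes were high. In null 5, all 3 Mx members stood above every wild-type library and had their highest value, as 22.8% of all tested genes did. In null 6, mxc alone of the 7 members stood above the wild-type range, and the other 6 had their lowest value there, mxb only nominally, at 0.146 CPM against 0.147 CPM in wild type 1. Over all tested genes, 36.4% had their lowest value in null 6. On the log2 CPM scale null 5 exceeded null 6 by 0.69 for mxc and by between 1.99 and 3.36 for the other 6.

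Compared within the split by ovary markers, mxc was higher in the null library on both sides. On the scale of log2 CPM, null 6 exceeded wild type 2 by 1.90, and null 5 exceeded the mean of wild type 1 and 3 by 1.46. As the groups did not overlap, the choice of sides could not change this direction, and the sizes alone are informative. For RSAD2 the corresponding differences were -3.35 and -0.98, for IFIH1 -2.87 and -0.64, for IRF7 -2.94 and -0.73, and for isg15 -3.54 and -0.40. The sign changed between the sides for mxa, at -2.72 and 1.40, and for mxb, at -0.89 and 1.85. In a fit without both libraries high in ovary markers, which leaves 1 null library, the log2 fold change was 1.45 for mxc, 1.39 for mxa, -1.04 for RSAD2, -0.69 for IFIH1, -0.86 for IRF7 and -0.65 for isg15. With the ovary marker score as a covariate over all 5 libraries, it was 1.75 for mxc and -1.83 for RSAD2, each at an adjusted p-value of 0.450 in edgeR, and mxa turned to -0.18.

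Since a ratio of 2 genes within a library does not depend on how libraries are scaled, mxc was also compared with each other member in this way. The log2 ratio of mxc to RSAD2 was -6.00, -7.35 and -6.89 in wild type 1, 2 and 3, against -4.01 and -2.10 in null 5 and 6. Its mean was thus 3.69 higher in the null group, on a log2 scale. All 6 ratios had a higher mean in the null group, by 3.45 for isg15 and for IRF7, 3.29 for IFIH1, 2.02 for mxa and 0.88 for mxb. An exact two-sided permutation test over libraries gave p = 0.1, the smallest possible with 10 splits of 3 against 2, for RSAD2, IFIH1 and IRF7. It gave 0.2 for isg15, 0.3 for mxa and 0.5 for mxb. After Benjamini-Hochberg adjustment over the 6 ratios the exact permutation p-values lay between 0.2 and 0.5. This test could not have passed 0.05 whatever the values were, so it does not bear on whether mxc departs from the other members, and the ratios are given as a description.

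**Figure D3:**
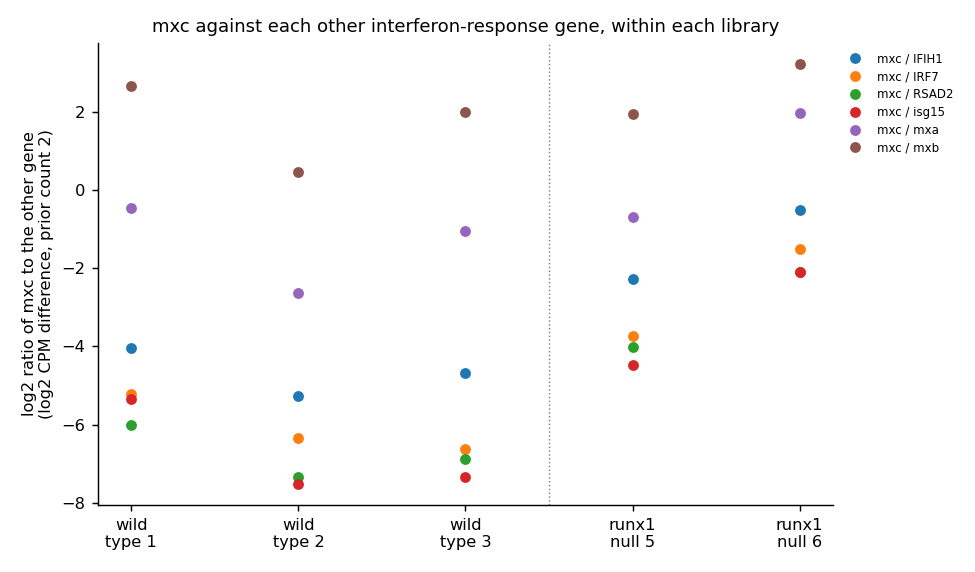
Log2 ratio of mxc to each other member (difference of log2 CPM with a prior count of 2, vertical axis) in each of the 5 libraries (horizontal axis), 1 colour per gene. Heights are not comparable between genes because gene length is not accounted for. The ratio to RSAD2 runs from -7.35 in wild type 2 to -2.10 in runx1 null 6, and all 6 ratios are highest in runx1 null 6.

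The rest of the Mx family was read beside its members. In the gene order of the RefSeq assembly GRCz12tu, used for order only, mxc and mxe are neighbours, as are mxa and mxb, and mxg and mxd. Counts of mxe (ENSDARG00000014427) were 36, 126 and 115 in wild type and 116 and 26 in the null libraries, unlike those of its neighbour mxc. The coding gene on the other side of mxc, gatd3, had 625, 462 and 430 counts in wild type, against 440 and 1027 in null 5 and 6, a log2 fold change of 0.37 (adjusted p-value 0.758 in edgeR). Neither neighbour of mxc showed its order of libraries. Counts of mxd (ENSDARG00000023369) were 219, 122 and 57 against 281 and 123, and those of mxf (ENSDARG00000026049) were 290, 14 and 22 against 49 and 2. For mxg (ENSDARG00000008019) there were 2, 2 and 1 counts in wild type, 14 in null 5 and 1 in null 6. A further copy, mxh (ENSDARG00000051795), named after its values were seen, had 33, 7 and 10 counts against 10 and 0. Of the 8 Mx genes, then, mxc was the only one with both null libraries above wild type in CPM, and 1 of 8 is close to the 11.15% of all tested genes that were above in this way. The log2 fold changes were -0.56 for mxe, 0.54 for mxd, -2.01 for mxf and -1.73 for mxh, each with a standard error above its size except for mxf and mxh, whose errors were 1.80 and 1.52. Reads with several alignments were not counted to any gene. How alike the Mx copies are was not measured, so the split of reads among them is uncertain.

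**Figure D4:**
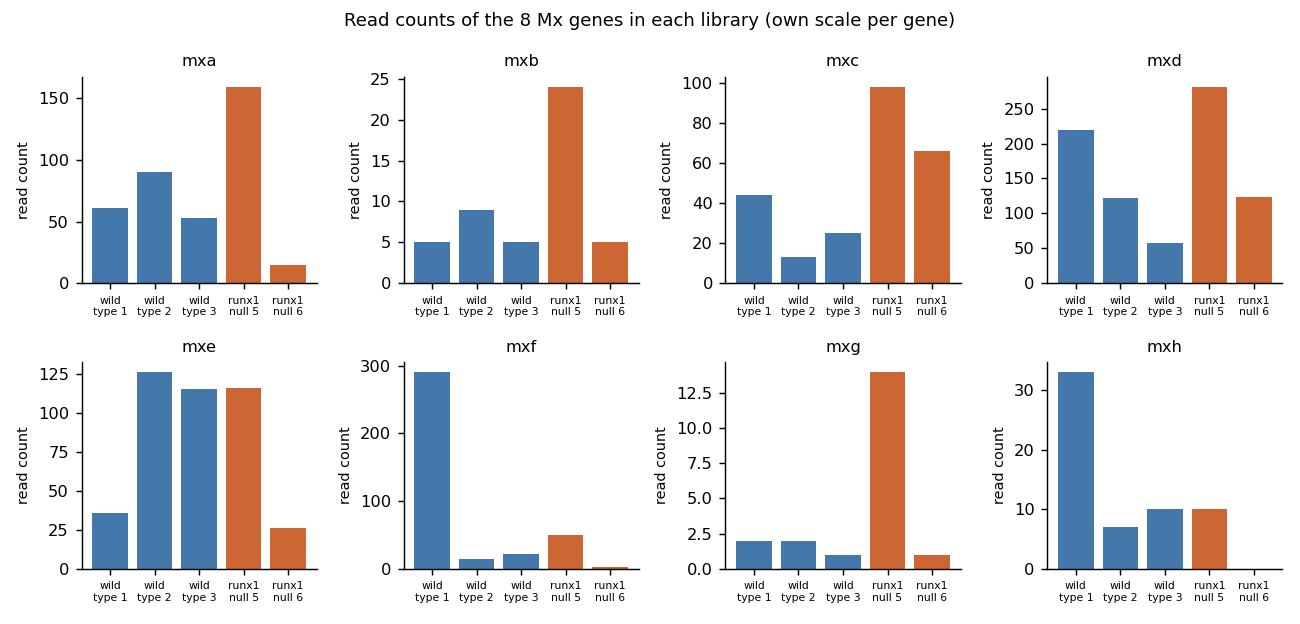
Read counts of the 8 Mx genes (vertical axis, from 0, each panel with its own scale) in the 3 wild-type libraries (blue) and the 2 runx1 null libraries (orange). For mxa, mxb, mxd and mxg the highest bar is runx1 null 5 and runx1 null 6 is low or within the wild-type range, at 15 counts for mxa, whereas mxc has 98 and 66 counts in the null libraries against 44 at most in wild type.

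Beyond the members, the other genes of the pathway were read from lists of 124 names, of which 94 matched a gene and 85 were tested. Leaving out the members, 79 tested genes remained, 57 with a negative and 22 with a positive log2 fold change. Over all tested genes the share with a negative value was 41.8%. The median of the 79 genes was -0.49, beside 0.24 over all tested genes. None of them passed the adjusted threshold in edgeR, and 3 were lower and 2 higher at an unadjusted p under 0.05. In both null libraries 16 of them, 20.3%, lay below wild type, and 2, or 2.53%, lay above it. The corresponding shares of all tested genes were 14.83% and 11.15%.

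Of the interferon ligands only ifnphi1 had enough reads to be tested. It stood at 5.54, 9.41 and 16.6 CPM in wild type, against 7.49 and 1.28 CPM in runx1 null, so null 5 was within the wild-type range and null 6 below it. The others, ifnphi2, ifnphi3, ifnphi4, ifng1 and ifng1r, stood at or below 0.378 CPM in every library. The receptor chains crfb2 and ifngr1l had log2 fold changes of -1.12 and -0.90, and ifngr2, a chain of the interferon-gamma receptor, one of 0.43. Without runx1 null 6 these were -0.33, -0.13 and 0.075. Among these, crfb2 alone had its null libraries under every wild-type library, with null 5 at 11.57 CPM beside wild type 2 at 11.61 CPM. This order depended on the scaling, as null 5 had 360 counts and wild type 2 had 322, and per assigned count the groups overlapped.

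All 5 tested genes of the relay from receptor to nucleus had a negative log2 fold change, with a median of -1.13, beside 41.8% of all tested genes with a negative value. In 3 of the 5 both null libraries lay under every wild-type library, as in 14.83% of all tested genes. In the others null 5 lay inside the wild-type range and null 6 alone below it. The transcription factor stat2 stood at 312, 495 and 744 CPM in wild type, against 251 and 66.4 CPM in runx1 null. The kinase jak2a, which also serves the erythropoietin receptor, stood at 856, 785 and 1493 CPM against 515 and 104 CPM. For each of them the null libraries lay under all wild-type ones, and the log2 fold changes were -1.70 and -1.75, with TYK2 likewise at -1.13, and the adjusted p-value of each was 0.612 in edgeR. Without runx1 null 6 the log2 fold changes were -1.001 for stat2, -0.98 for jak2a and -0.39 for TYK2, and with erythroid scaling that of TYK2 was -0.01.

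The sensors TLR7 and tlr9, receptors in endosomes for single-stranded RNA and for DNA, had the smallest unadjusted p-values of the lists. The counts of TLR7 were 106, 36 and 38 in wild type 1, 2 and 3, against 3 and 1 in null 5 and 6. For tlr9 there were 78, 44 and 42 counts in wild type, and 4 and 0 in the null libraries. In null 5 and in null 6 these counts were all near or under the smallest level shown. How far the null libraries differ therefore cannot be judged for TLR7 and tlr9. Their log2 fold changes were -4.88 ± 1.09 and -4.77 ± 1.40 (SE), with an adjusted p-value of 0.612 each in edgeR, while the DESeq2 Wald test gave adjusted p-values of 0.00681 and 0.0118. Over all alternatives these reached from the DESeq2 values up to 0.906. The B-cell markers, all 7 listed matched, summed to 96.6, 58.0 and 44.9 CPM in wild type and to 24.0 and 5.55 CPM in the null libraries. In CPM 6 of these genes were below wild type in both null libraries, as 14.83% of all tested genes were, and blnk overlapped. For ighm this depended on the scaling, with null 5 at 10.28 CPM beside wild type 3 at 10.39 CPM. The marker cd79a had 0 counts in null 6. The part of the B-cell markers in the values of TLR7 and tlr9 was not tested.

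Among the interferon regulatory factors, IRF8, needed for macrophage development, stood at 28.7, 26.7 and 17.6 CPM in wild type, against 8.68 and 2.57 CPM in runx1 null, a log2 fold change of -2.11. IRF5 stood at 63.8 CPM in null 6, at 17.9 CPM in wild type 2 and between 4.31 and 11.8 CPM in the other libraries. It was thus highest in the libraries with high ovary markers. Its log2 fold change of 1.62 became -0.92 without null 6, and was 0.27 with the ovary marker score as a covariate. The list as a whole was even, with 4 tested genes at a negative and 4 at a positive value, beside 41.8% of all tested genes at a negative value.

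The effector list held 29 tested genes, 20 of them with a negative log2 fold change and a median of -0.58. In it, ifit14 and ifit15, proteins of a family that binds viral RNA, shared the direction of mxc. Counts of ifit15 were 1, 5 and 0 in wild type 1, 2 and 3, against 96 and 17 in null 5 and 6. Those of ifit14 were 4, 5 and 9 against 52 and 17. These were the 2 genes of the lists outside the Mx family that were tested and lay above wild type in both null libraries. For neither did a wild-type library reach the minimum count of 10, so both passed the filter only through the null libraries. That they were tested is therefore not independent of their direction, which is given as a description. Their log2 fold changes were 4.61 ± 1.48 and 2.34 ± 0.92 (SE), each at an adjusted p-value of 0.612 in edgeR. Without runx1 null 5 they were 2.75 and 1.19, and without wild type 2 that of ifit15 was 6.49. Like mxc they had few reads in wild type, close to the smallest level shown in the case of ifit15, and were highest in null 5.

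For the feedback inhibitors, usp18, which strips isg15 from proteins and blocks the receptor, had a log2 fold change of -0.97, NLRX1 of -0.29 and socs1b of -0.33. Without runx1 null 6 that of usp18 was -0.17 and that of socs1b 0.47. The interferon-gamma targets had 12 of 16 tested genes at a negative value and a median of -0.43. The regulator nlrc5, which switches on class I antigen presentation in mammals, stood at 211, 148 and 259 CPM in wild type, against 99.5 and 13.2 CPM in runx1 null. Guanylate-binding protein gene gbp3 stood at 159 CPM in null 6, at 43.1 CPM in wild type 2 and between 8.65 and 18.4 CPM in the remaining libraries, the same 2 libraries that held the ovary markers. Without null 6 its log2 fold change of 2.05 was -0.19.

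The genes whose profile was most like that of a member were sought among the other tested genes with a mean of at least 50 counts, 15972 for mxc and 15971 for RSAD2, by the root-mean-square distance of centred log2 CPM over the 5 libraries. Nearest to mxc were FGFRL1 at 0.153, nanos1 at 0.155, col27a1b at 0.171, FAM171A2 at 0.227 and RND1 at 0.240. FGFRL1, a receptor of fibroblast growth factor that lacks a kinase, had 261, 100 and 193 counts in wild type, against 734 and 403 in null 5 and 6. None of these 5 is on the interferon lists. Nearest to RSAD2 were ADRB3, zgc:194659, si:dkey-224j12.6, si:dkey-1b17.5 and nrp1b, at distances between 0.0700 and 0.0970. None of these is on the interferon lists either, so mxc and RSAD2 did not differ in this. The lists held only 85 of the 20386 tested genes. ADRB3, an adrenergic receptor, had 9122, 6910 and 10214 counts in wild type, against 5226 and 859 in the null libraries. Between the members themselves, RSAD2 and IFIH1 were 0.220 apart, RSAD2 and IRF7 0.283, and RSAD2 and mxc 1.95. The member nearest to mxc was mxb, at 0.935.

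The summed markers of several blood cell types were lowest in null 6, as 6 of the members were. The sum of the dendritic cell markers, 3 matched of 5, was highest there, at 11.06 CPM against 5.17 to 7.82 CPM elsewhere. That sum was mostly BATF3, at 9.49 CPM in null 6. The other matched markers, flt3 and ZBTB46, were lowest in null 6, at 0.409 and 1.17 CPM. The pan-leukocyte markers, 7 matched of 10 listed and none at 0, summed to 796, 523 and 274 CPM in wild type 1, 2 and 3 and to 431 and 85.7 CPM in null 5 and 6. The macrophage markers, 7 matched of 9 and none at 0, summed to between 168 and 376 CPM in wild type and to 371 and 86.0 CPM in the null libraries. The erythroid markers, 5 matched of 7, have their sum given above. It was mostly hbaa1, whose groups overlapped. The other 4, gata1a, klf1, EPOR and alas2, were below wild type in both null libraries in CPM, as 14.83% of all tested genes were. For gata1a and alas2 this depended on the scaling, as null 5 had 8221 and 174394 counts and wild type 2 had 8139 and 160757. Per assigned count the groups of gata1a and alas2 overlapped. For klf1 the levels were 479, 329 and 527 CPM in wild type, against 250 and 37.6 CPM in null 5 and 6. The thrombocyte markers, 5 matched of 6 and none at 0, were below wild type in both null libraries for each gene, and summed to 1027, 811 and 1305 CPM in wild type, against 420 and 110 CPM in runx1 null. Their part in the levels of the members was not tested. In a bulk library, fewer cells of a type and less RNA per cell cannot be told apart.

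Which members separated the groups depended on the marker list used as divisor. Per 1000 pan-leukocyte marker counts, RSAD2 had 109, 166 and 437 counts in wild type, against 120 and 99.1 in null 5 and 6, and the groups overlapped for 5 of the 7 members, with mxb and mxc above wild type in both null libraries, as 25.19% of all tested genes were. On the same scale 0 members and 1.58% of tested genes lay below wild type. The erythroid sum was mostly the globin gene hbaa1, at 22756 of 30395 CPM in wild type 1 and 29493 of 35778 CPM in null 5. Ratios to it therefore describe that sum, and division by the other erythroid genes was not run. Per 1000 erythroid marker counts RSAD2 had 2.85, 3.06 and 2.34 counts in wild type, against 1.45 and 1.78 in the null libraries, so RSAD2 was lower in both. On that scale IRF7 was also lower in both null libraries, at 1.19 and 1.17 against 1.53 to 1.94, and 2.81% of all tested genes were lower in this way. On it mxb and mxc again stood above wild type in both null libraries, as 22.65% of all tested genes did, and the other 3 members overlapped. By contrast, mxc had 1.62, 0.896 and 3.44 counts per 1000 pan-leukocyte counts in wild type, and 7.32 and 22.5 in the null libraries. Per macrophage marker count RSAD2, IFIH1 and IRF7 were below wild type in both null libraries (6.02% of all tested genes) and mxb and mxc above (15.21%). Per endothelial marker count 4 members, RSAD2, IFIH1, IRF7 and isg15, were below (22.28% of all tested genes) and mxc alone above (4.23%). Per nephron marker count these 4 and mxa were below (27.33% of all tested genes) and 0 members above (0.67%), and mxc overlapped, at 1.99, 0.640 and 16.0 counts per 1000 in wild type, against 0.889 and 4.60 in runx1 null.

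Scaled to the pan-leukocyte markers, the edgeR log2 fold change was 2.91 for mxc, where the median of all genes was 1.74, and its adjusted p-value was 0.0863.

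The markers of other tissues did not share the library order of mxc. The ovary markers were highest in null 6 and next highest in wild type 2, whereas mxc was lowest in wild type 2. Nephron markers summed to 650, 732 and 59.1 CPM in wild type and to 3545 and 419 CPM in null 5 and 6, so null 6 lay inside the wild-type range for them. Endothelial markers, 5 matched of 6, summed to between 116 and 158 CPM in wild type and to 330 and 80.7 CPM in null 5 and 6. The interrenal markers, 4 matched of 7, were highest in wild type 1, at 1551 CPM. T-cell markers, 8 of 8, summed to 22.2, 24.7 and 24.9 CPM in wild type and to 33.8 and 10.9 CPM in the null libraries. The question of why mxc differs from the other members was not answered by these counts. Of the 15 marker lists, 0 had both null libraries above wild type in their summed level and 2, B cell and thrombocyte, had both below. The erythroid sum overlapped, although 4 of its 5 genes had both null libraries below in CPM, gata1a and alas2 only with that scaling. The part of any cell type in the level of mxc was not tested.

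**Figure D5:**
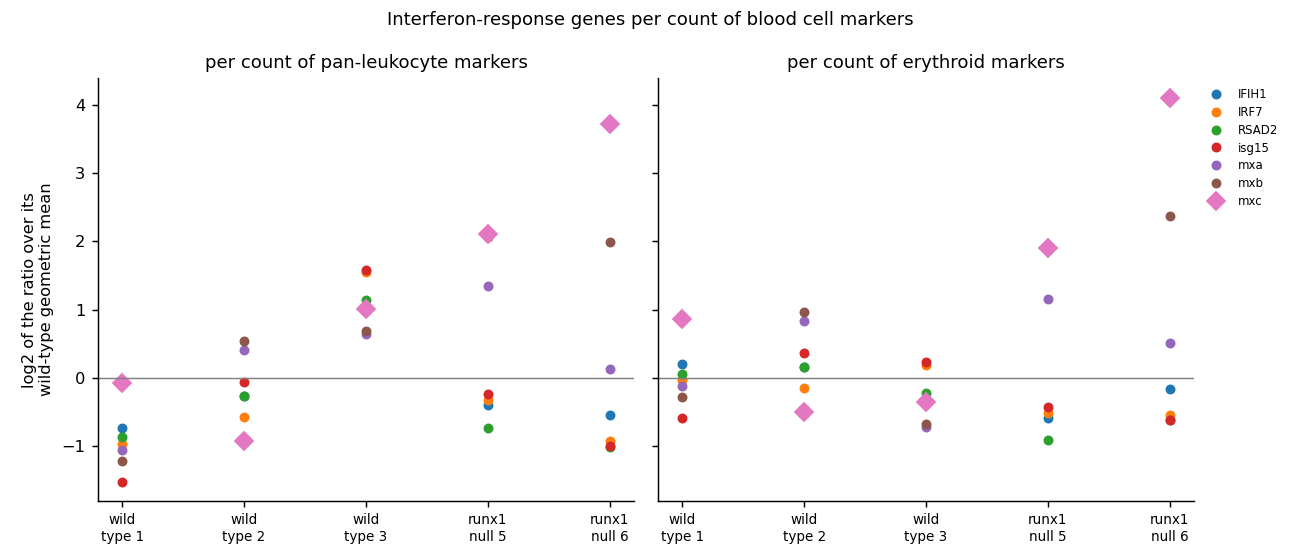
Counts of each member divided by the summed counts of the pan-leukocyte markers (left) or the erythroid markers (right), as the log2 of that ratio over its geometric mean in wild type (vertical axis), in each of the 5 libraries (horizontal axis), with mxc as diamonds. On the left RSAD2 stands at 120 and 99.1 counts per 1000 marker counts in the null libraries, inside or just under the wild-type range of 109 to 437, while mxc at 7.32 and 22.5 stands above its wild-type range of 0.896 to 3.44.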

How the data were processed

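For each library the authors deposited the raw read count of every Ensembl gene ID, unnormalized, closing with 5 rows of reads given to no gene, which were left out (between 28.15% and 39.4% of reads). Per the submitters' processing notes, HISAT2 2.2.1.0, HTSeq 0.11.4 and DESeq2 were used with build GRCz11. The annotation release and strand setting are not given in the sources used here. Symbols came from a table of IDs, which names 29201 of 32520 IDs.

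Genes were kept with edgeR's filterByExpr (minimum count 10, minimum total 15) and scaled with TMM. The genotypes were compared over all 20386 tested genes with edgeR 4.0.16 (two-sided quasi-likelihood F-test, robust fit), with Benjamini-Hochberg adjustment at 0.05. CPM uses effective library sizes, and log2 CPM a prior count of 2. Alternatives used DESeq2 1.42.0 and limma 3.58.1, with R 4.3.3. The gene test was run on simulated data to check that it works. Its power at the spread of these libraries is not given here, so a lack of calls does not show that genes were unchanged. Whether pools were separate clutches is not stated, so p-values measure the spread between these libraries. No library repeated another, since in all 10 pairs the chi-square of the counts per degree of freedom reached 145 or more.

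Results on some genes are not reported here. The members and gene lists were chosen with earlier results of these data known. Named genes are the members, the other Mx genes, RUNX1, at most 3 tested genes per pathway list with the smallest p-values, and the 5 nearest profiles of mxc and RSAD2. The RefSeq gene table served for gene order only.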

Additional observations from a re-analysis of the deposited data

How the results depend on the processing

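No paired analysis was possible because wild-type and null libraries carry different numbers. The 6 ratios of mxc kept their direction in every alternative run for them, which left out single libraries or changed the added count. For RSAD2, IFIH1, IRF7 and isg15 the groups did not overlap, so leaving out a library could not reverse the ratio. Only the ratios to mxa and mxb could turn, and they lay between 0.69 and 3.36 and between 0.23 and 1.53. Over all results and alternatives, 553 values kept direction and side of the threshold, 28 changed sign and 6 came to pass the threshold, namely TLR7 (-5.01) and tlr9 (-4.92) with DESeq2, and tlr9, IRF5, ifit15 and gbp3 with pan-leukocyte scaling. The count, 0 in edgeR, was 81 with the DESeq2 Wald test (29 higher, 52 lower) and 2923 with pan-leukocyte scaling (2912 higher, 11 lower), and 0 in the other alternatives run, leaving out single libraries included.

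Signs turned as follows, on the log2 scale. With pan-leukocyte scaling, which moved the median of all genes from 0.24 to 1.74, NLRX1 was 1.38, socs1b 0.32, gbp2 0.71 and mxe 0.03. With nephron scaling (median -2.13), mxa was -3.43, mxc -1.13, ifngr2 -1.39, mxd -1.64 and ifit14 -1.15. With erythroid scaling (median 2.03), ifngr1l was 0.16, usp18 0.04, NLRX1 1.84, socs1b 0.61, gbp2 1.104 and mxe 0.49. With limma voom and sample weights, mxa was -0.47 and mxe 0.034. With the ovary marker score as a covariate mxa was -0.18. Without both libraries high in ovary markers, IRF5 was -0.49, socs1b 0.39 and mxe 0.42. Leaving out single libraries gave -2.44 to 1.16 for mxa, -0.92 to 2.46 for IRF5, -0.19 to 3.11 for gbp3, -0.30 to 1.09 for mxd, -2.15 to 0.21 for mxe, -5.75 to 0.30 for mxf, -2.09 to 0.47 for socs1b, and 1.06 to 1.91 for mxc. The cause of these changes was not tested, apart from the shift that a scaling itself makes.

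Erythroid scaling and the fit without both libraries were chosen after seeing the data. Counts of 5 to 98 reads limit mxb and mxc.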
